A study of Mus musculus with 12 samples.

Results

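The 10 genes described here are members of the Notch pathway: the 4 receptors Notch1, Notch2, Notch3 and Notch4, the 4 ligands Jag1, Jag2, Dll1 and Dll4, and the 2 target genes Hes1 and Hey1. They were chosen by name out of 53801 genes, and each name matched 1 gene ID. Cells for RNA sequencing were sorted from cutaneous squamous cell carcinoma, a skin cancer of keratinocytes, in FVB mice. In the first sort, basal tumor cells carrying a Rosa-YFP mark and the integrins CD49f and CD29 were divided by an mScarlet reporter of TGF-beta signalling into 3 reporter-positive and 3 reporter-negative libraries. In the second sort, tumor macrophages carrying CD45 and F4/80 were divided by surface FceRIa, a chain of the high-affinity receptor for IgE, giving 3 FceRIa-positive and 3 FceRIa-negative libraries. The driver of the YFP mark, the way the tumors were induced, the age of the mice and the number of animals behind a library were not stated in the sources at hand.

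Notch receptors sit in the plasma membrane and bind Jagged and Delta-like ligands on neighbouring cells. Ligand binding lets ADAM proteases and then gamma-secretase cut the receptor, and the freed intracellular domain joins the DNA-binding protein RBPJ and Mastermind proteins to switch on genes such as Hes1 and Hey1, which encode repressors. In the epidermis, Notch signalling is known for driving keratinocytes from the basal layer into differentiation. In myeloid cells, Notch2 and RBPJ are known for roles in the choice between monocyte, macrophage and dendritic fates.

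Levels were put on 1 scale for all 12 libraries as CPM, the counts relative to the normalised library size, and as RPKM, which divides CPM by the kilobases of exon of a gene so that genes can be compared. Total counts ran from 27951632 to 35088897 in the tumor libraries and from 33704786 to 40041144 in the macrophage libraries, so 3 counts corresponded to 0.0683 to 0.109 CPM. This limit covers counting error only. The labels do not say that replicates came from separate animals, and the p-values therefore reflect spread among samples that may be purely technical. Libraries of the same replicate number deviated together from their group means (r of 0.449 to 0.703 for tumor cells and 0.688 to 0.787 for macrophages). Each comparison was therefore fitted without and with the number as a block (the unpaired and the paired fit). In the tumor cells this did not tell numbers 1 and 3 apart. There negative 1 with positive 3 gave 0.488 and negative 3 with positive 1 gave 0.483. Tumor replicates 1 and 3 were much alike: the chi-square per degree of freedom between them was 2.97 in the negative and 1.62 in the positive group, against 43.1 to 90.6 between either of them and replicate 2. Replicate 2 also had the lowest summed level of 10 dissociation stress genes in every group (3007 and 3838 CPM in the tumor cells, against 6799 to 7941 in replicates 1 and 3). The count columns of macrophage replicate 2, in both groups, have headings that end in New, unlike those of replicates 1 and 3. The sample titles do not explain this ending. The labelled cell types carried their defining markers: 8 keratinocyte markers summed to 63622 to 78291 CPM in the tumor cells, and 10 macrophage markers summed to 11277 to 19742 CPM in the macrophages.

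Upstream windows of 3 genes that differed between the tumor groups follow, because that sort was made on TGF-beta signalling and these genes had the largest differences in the paired fit among the 4 receptors, the 4 ligands and the HES/HEY and feedback genes, respectively. Each runs 5′ to 3′ over the 250 bases before the transcription start, from RefSeq on GRCm38.p6. The capitals mark CAGAC, the core that SMAD proteins are known to bind, and its reverse complement GTCTG. The Notch3 window is chr17:32166891-32167140 on the minus strand, the Dll1 window is chr17:15376933-15377182 on the minus strand, and the Nrarp window is chr2:25180508-25180757 on the plus strand.
Notch3: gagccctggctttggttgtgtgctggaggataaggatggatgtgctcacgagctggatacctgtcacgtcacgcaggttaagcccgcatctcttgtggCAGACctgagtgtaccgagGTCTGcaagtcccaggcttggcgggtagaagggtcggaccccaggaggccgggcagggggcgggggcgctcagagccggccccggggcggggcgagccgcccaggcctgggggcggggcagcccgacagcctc
Dll1: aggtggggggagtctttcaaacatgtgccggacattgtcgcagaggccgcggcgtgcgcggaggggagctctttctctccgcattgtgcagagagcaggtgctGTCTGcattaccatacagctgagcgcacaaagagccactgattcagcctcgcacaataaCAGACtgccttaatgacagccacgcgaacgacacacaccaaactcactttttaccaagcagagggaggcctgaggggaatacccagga
Nrarp: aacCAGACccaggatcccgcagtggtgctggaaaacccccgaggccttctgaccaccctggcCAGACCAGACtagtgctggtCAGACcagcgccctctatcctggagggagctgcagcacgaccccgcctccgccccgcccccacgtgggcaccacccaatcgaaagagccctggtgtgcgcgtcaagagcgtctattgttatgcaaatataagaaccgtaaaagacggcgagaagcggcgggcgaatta
Notch3 held 2 matches, at 133 to 129 and 152 to 148 bases before its start. Dll1 has 2 windows, of which the one farther upstream is printed. It held 2 matches, and the window before the second annotated start held 1. Nrarp held 4, all on the strand of the gene. Such matches are common: CAGAC on either strand occurred in 42.2% of all 32851 upstream windows of this length. Counted per gene, it occurred in 4 of the 8 members with an entry (Notch3, Dll1, Dll4 and Jag1), which have 9 windows. Notch2 and Jag2 had 0 matches. The core TGGGAA, which RBPJ is known to bind, was in 21.6% of all windows on either strand and in none (0) of the 8 members' windows. A match describes the letters only. No window was at hand for Hes1 and Hey1.

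In the tumor cells, Notch3 was the receptor with the largest difference between the sorts, 2.01-fold higher in the reporter-positive cells, with Notch2 1.31-fold higher. The ligands Jag2 and Dll1 were lower in the positive cells, by 1.32-fold and 1.48-fold. These 4 genes had groups that did not overlap. In the unpaired fit with edgeR's quasi-likelihood test, 0 of the 9 members tested passed an adjusted p of 0.05, while 4 had an unadjusted p under 0.05 and DESeq2 called 3 (Notch2, Notch3 and Dll1). In the paired fit 5 of 9 passed, 3 higher (Notch2, Notch3 and Hes1) and 2 lower (Jag2 and Dll1). Over all 13604 genes tested, the unpaired fit called 0.809% (0.573% higher and 0.235% lower), the paired fit called 18% (10.7% higher and 7.34% lower), and 28.1% had groups that did not overlap, against 4 of the 9 members. The median log2 difference of the members was 0.13 in the paired fit, beside 0.00 over all genes. Fewer cells that make an RNA and less of it per cell cannot be told apart in these sorted bulk samples.

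**Figure D1:**
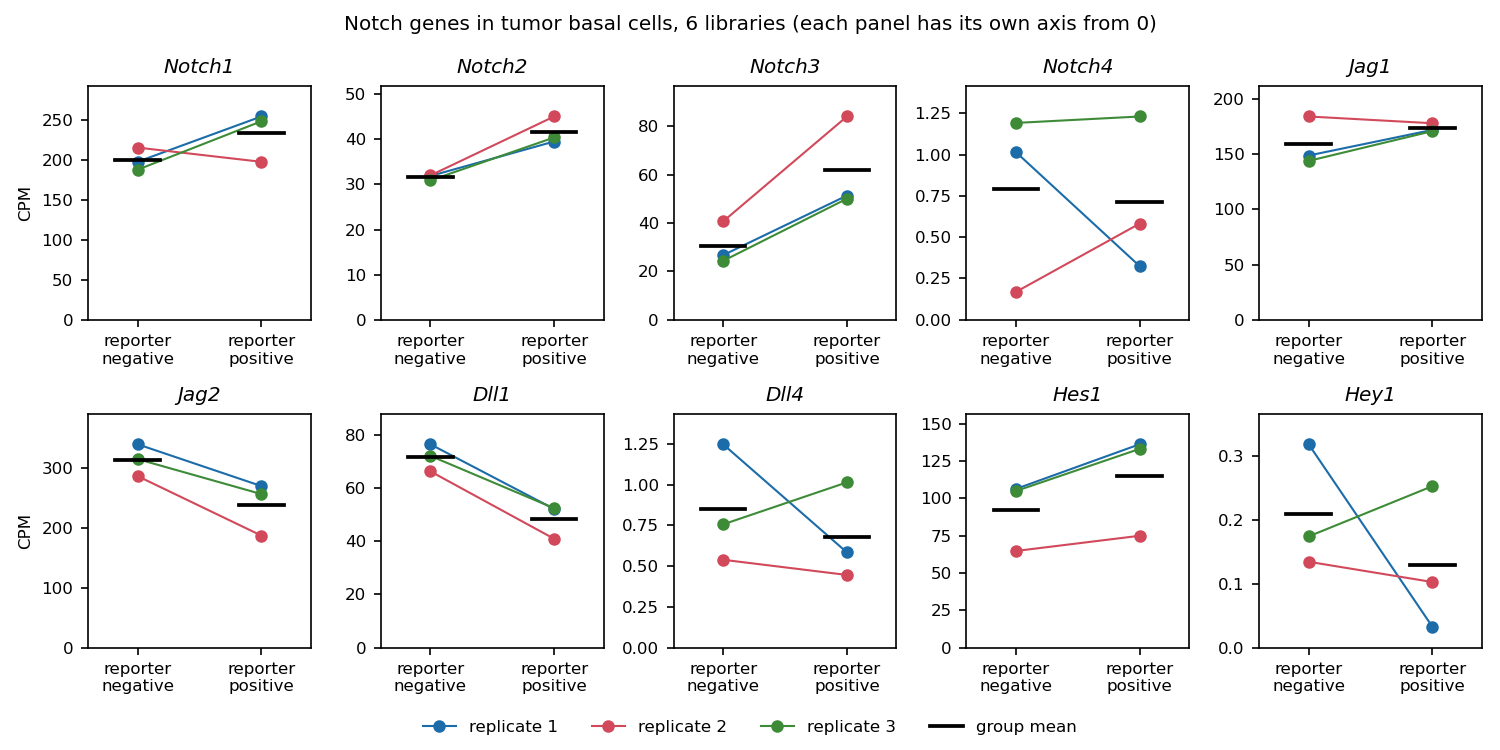
CPM (vertical axes, each from 0) of the 10 Notch genes in the 6 tumor libraries, by reporter sort (horizontal axes); colours mark replicate numbers, lines join libraries of the same number and black bars are group means. Notch2 and Notch3 lie higher, and Jag2 and Dll1 lower, in every reporter-positive library than in any negative library.

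Notch3 (ENSMUSG00000038146, GRCm38 chromosome 17, 32120820 to 32166852, minus strand) encodes a receptor best known from vascular mural cells that is also made by keratinocytes. It was at 26.7, 40.6 and 24.3 CPM in reporter-negative replicates 1, 2 and 3 and at 51.3, 84.0 and 50.04 CPM in the positive ones. Every positive library was above every negative one, and replicate 2 was the highest of each group. The log2 difference was 1.01 ± 0.27 (SE, n = 3 per group) in the unpaired fit, with an edgeR adjusted p of 0.119. With pairing it was 1.003 ± 0.05 with an adjusted p of 0.00175, and the 3 pairs gave 0.94, 1.05 and 1.04. Markers of other cells moved with replicate 2 as well. The 12 fibroblast and mural markers summed to 113, 192 and 87.6 CPM in the negative libraries and to 99.3, 261 and 86.5 CPM in the positive ones. Of the 11 tested, 0 were higher and 1 was lower in the paired fit. The 10 macrophage markers summed to 30.6, 68.4 and 30.1 CPM against 38.3, 99.2 and 37.1 CPM, and 2 of 10 were higher in the paired fit (8 had an unadjusted p under 0.05). Without pair 2 the paired log2 difference of Notch3 was 0.98. The 6 suprabasal markers, made by keratinocytes that leave the basal layer, summed to 685, 1053 and 745 CPM in the negative libraries. In the positive libraries they summed to 866, 2082 and 827 CPM. In the paired fit 3 of 6 were higher and 0 lower, and Krt10 and Lor had log2 differences of -0.28 and -0.35. The part of the fibroblast and mural, macrophage and suprabasal markers in the Notch3 result and in the other tumor differences was not tested.

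Notch2 (ENSMUSG00000027878, chromosome 3, 98013527 to 98150361, plus strand) encodes a receptor known from keratinocytes as well as from myeloid cells. It stood at 31.9, 32.0 and 30.9 CPM in the negative and at 39.5, 45.1 and 40.4 CPM in the positive libraries. The groups were apart, and the gap between them was larger than the spread within either. The log2 difference was 0.39 ± 0.07 with an adjusted p of 0.0614 in the unpaired fit, and 0.39 ± 0.06 with an adjusted p of 0.0118 in the paired fit (edgeR). Notch1 (ENSMUSG00000026923, chromosome 2, 26457903 to 26516663, minus strand), the main receptor of keratinocytes, was at 198, 216 and 188 CPM in the negative and at 255, 198 and 249 CPM in the positive libraries. The positive library was the higher of pairs 1 and 3 and the lower of pair 2, and the groups overlapped. Its paired log2 difference was 0.21 ± 0.11 with an adjusted p of 0.236 by edgeR, and 0.38 without pair 2, where it passed. The fit without pair 2 keeps only the near-identical replicates 1 and 3, so its spread is close to counting error. Notch4, known mainly from endothelium, was at 0.168 to 1.23 CPM, on 5 to 41 counts per library, and its log2 difference of -0.18 ± 0.74 leaves a wide interval. The 10 endothelial markers summed to 30.0 to 42.3 CPM in the tumor libraries.

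Jag2 (ENSMUSG00000002799, chromosome 12, 112907819 to 112929776, minus strand), a Jagged ligand, had the highest mean RPKM of the 4 ligands in both tumor groups. It was at 340, 287 and 316 CPM in the negative and at 270, 187 and 257 CPM in the positive libraries. All positive libraries were below all negative ones, and replicate 2 was the lowest of each group. The log2 difference was -0.41 ± 0.16 with an adjusted p of 0.224 unpaired, and -0.42 ± 0.08 with an adjusted p of 0.0180 paired (edgeR). Dll1 (ENSMUSG00000014773, chromosome 17, 15367354 to 15376872, minus strand), a Delta-like ligand known from clusters of basal keratinocytes with stem cell character, was at 76.6, 66.4 and 72.2 CPM in the negative and at 52.2, 40.9 and 52.5 CPM in the positive libraries. The groups were again apart. Its log2 difference was -0.57 ± 0.12 (adjusted p 0.0846) unpaired and -0.58 ± 0.06 (adjusted p 0.00624) paired by edgeR, lower in 3 of 3 pairs. Unlike the unpaired fit of all 6 libraries, that without positive replicate 2 called Dll1 and Notch2, with adjusted p-values of 0.0354 and 0.0324. The suprabasal marker sums given for Notch3 went the opposite way to both ligands. These sums were higher in the positive library of 3 of 3 pairs and highest in replicate 2. The single markers did not all follow the sum. Krt1, Ivl and Sbsn were higher in the positive library of 3 of 3 pairs, Krtdap in 2, Lor in 1 and Krt10 in 0. Their part in these differences was not tested.

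Jag1 (ENSMUSG00000027276, chromosome 2, 137081456 to 137116644, minus strand), the other Jagged ligand, was at 149, 184 and 144 CPM in the negative and at 172, 178 and 171 CPM in the positive libraries. It was higher in 2 of 3 pairs, and the groups overlapped. The paired log2 difference was 0.13 ± 0.07 with an edgeR adjusted p of 0.264, and 0.22 without pair 2, where it passed. As for Notch1, only the near-identical replicates 1 and 3 remain in that fit. Dll4, a ligand known mainly from endothelium, was at 0.445 to 1.25 CPM on 13 to 43 counts, with a log2 difference of -0.33 ± 0.45 and 1 of 3 pairs higher in the positive library.

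Hes1 (ENSMUSG00000022528, chromosome 16, 30064384 to 30067796, plus strand), the repressor gene that Notch switches on most widely, was at 106, 64.7 and 105 CPM in the negative and at 136, 74.9 and 133 CPM in the positive libraries. In 3 of 3 pairs the positive library was higher, but the groups overlapped, because replicate 2 was the lowest of each. The unpaired log2 difference was 0.31 ± 0.29 with an adjusted p of 0.624, and the paired one was 0.30 ± 0.05 with an adjusted p of 0.0179 (edgeR). That call was lost without pair 1 (adjusted p 0.0971), without pair 3 (0.106) and with replicates 1 and 3 summed (0.133). The 10 dissociation stress genes moved the same way: they summed to 7163, 3007 and 6799 CPM in the negative and 7941, 3838 and 7774 CPM in the positive libraries, higher in 3 of 3 pairs and lowest in replicate 2. In the paired fit 5 of the 10 were called higher and 0 lower. Their part in the Hes1 result was not tested. Hey1 had 1 to 11 counts per tumor library, at or near the counting limit, and was not tested.

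**Figure D2:**
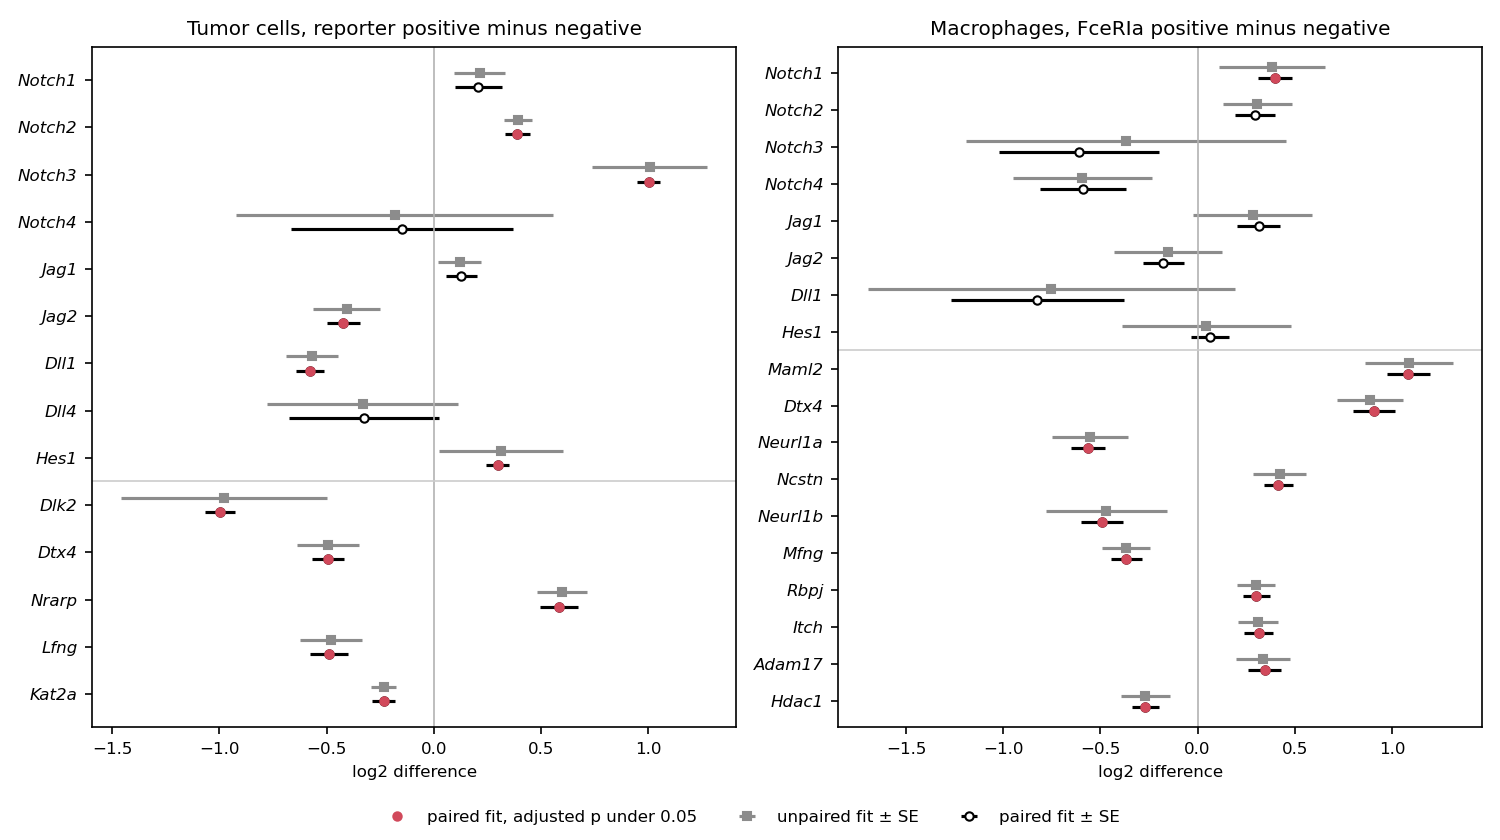
Log2 differences (horizontal axis, positive minus negative) with standard errors for the members tested (above the grey line) and for other Notch genes among those with the smallest paired p (below it), in tumor cells (left) and macrophages (right). In the tumor cells Notch2, Notch3 and Hes1 lie right of 0 and Jag2 and Dll1 left of 0 with adjusted p under 0.05 in the paired fit; in the macrophages Notch1 alone of the members passed.

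Compared per length of exon, the tumor cells made more ligand than receptor RNA in both reporter groups, and the sums moved in opposite directions. The 4 receptors together were at 20.9 ± 2.04 RPKM (SD, n = 3) in the negative and 28.0 ± 0.496 RPKM in the positive cells. The 4 ligands together were at 89.6 ± 2.90 RPKM and 75.7 ± 7.34 RPKM. Notch1 made up 68.5%, 65.4% and 68.7% of the receptor sum in negative replicates 1, 2 and 3, and 64.0%, 48.7% and 63.4% in the positive ones. Notch3 made up 16.3%, 21.7% and 15.6% against 22.7%, 36.4% and 22.4%, while Notch2 stayed at 12.8% to 14.9% in all 6 libraries. Among the ligands, Jag2 took 50.3 ± 3.36% in reporter-negative and 44.9 ± 4.31% in reporter-positive cells, Jag1 30.5 ± 4.49% and 39.7 ± 4.96%, and Dll1 19.0 ± 1.06% and 15.2 ± 0.676%. The shares of Notch1, Notch3, Jag1 and Dll1 did not overlap between the sorts. In a two-sided exact permutation test each gave p = 0.1, the smallest that 3 against 3 libraries allow, and the adjusted value over the 10 shares tested was 0.25.

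**Figure D3:**
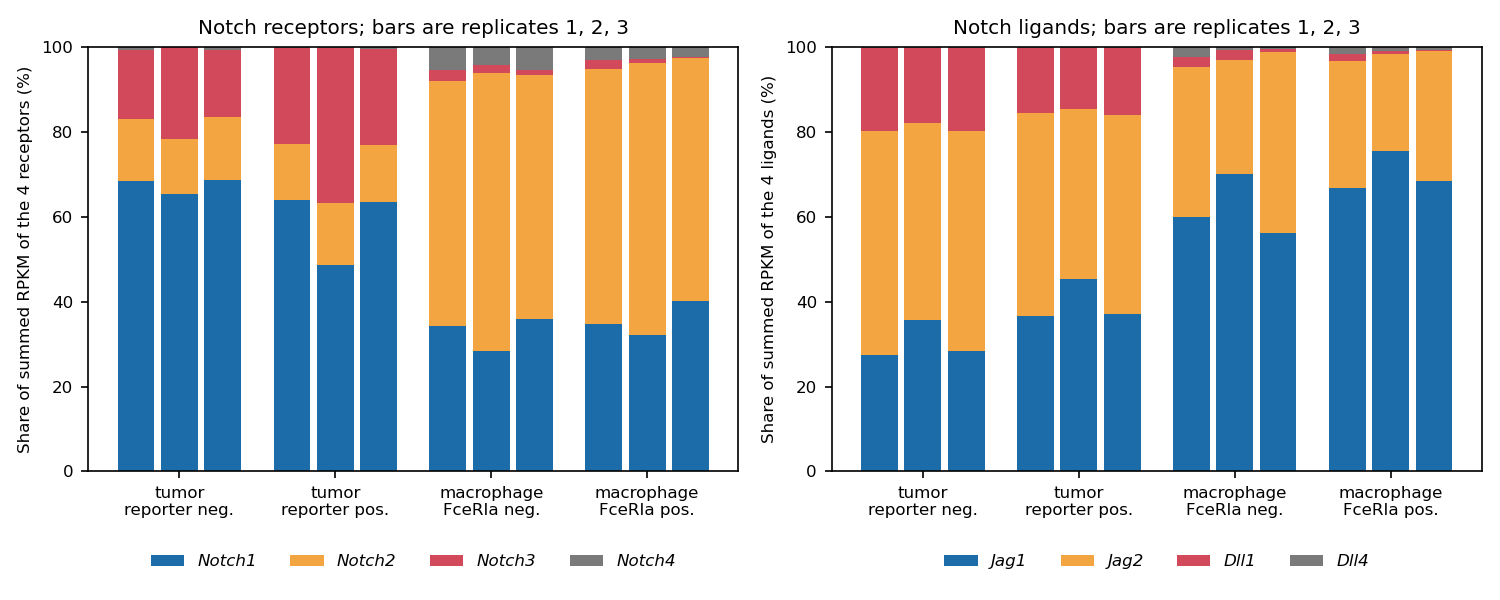
Share of each gene (vertical axes, percent) in the summed RPKM of the 4 receptors (left) and the 4 ligands (right), with 1 bar per library in each of the 4 groups. Notch1 is the largest segment of the receptor bar in each tumor library and Notch2 in each macrophage library, and the Notch3 segment is larger in every reporter-positive tumor library than in any negative one.

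The other genes of the pathway were taken from a list of 59, of which 48 were tested in the tumor cells. In the unpaired fit 0 passed by edgeR (11 had an unadjusted p under 0.05, and DESeq2 called 4). In the paired fit 2 rose and 4 fell in the reporter-positive cells, which is 6 of 48 beside the 18% of all genes. The median log2 difference was 0.06 over the list in that fit. The HES/HEY and feedback genes had 2 members at levels that could be tested. Nrarp, which encodes a feedback inhibitor of Notch that is itself induced by it, was at 121, 119 and 118 CPM in the negative and at 162, 219 and 165 CPM in the positive libraries. Its groups were apart, and the paired log2 difference was 0.59 ± 0.09 with an edgeR adjusted p of 0.0117. Hes6 had a paired log2 difference of 0.22 ± 0.08 that did not pass (edgeR adjusted p 0.114). Dlk2, a Delta-like protein without the part that activates the receptor, was at 70.7, 28.0 and 64.4 CPM in the negative and at 34.3, 13.1 and 35.8 CPM in the positive libraries. It was lower in the positive library of 3 of 3 pairs with a paired log2 difference of -0.998 ± 0.07 (edgeR adjusted p 0.00235), and the groups overlapped because replicate 2 was low in each.

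Among genes that modify the receptors, Lfng, a Fringe glycosyltransferase that changes which ligands a receptor answers to, was at 26.3, 22.8 and 23.9 CPM in the negative and 18.9, 14.3 and 19.4 CPM in the positive libraries (paired log2 -0.49 ± 0.09, edgeR adjusted p 0.0190). Dtx4, a Deltex ubiquitin ligase of Notch receptors, went from 17.7, 14.1 and 16.95 CPM to 12.6, 9.90 and 12.3 CPM (paired log2 -0.49 ± 0.07, edgeR adjusted p 0.0116). The groups of both were apart, and both passed in each paired fit without 1 pair, as did Nrarp and Dlk2. The acetyltransferase gene Kat2a had a paired log2 difference of -0.23 ± 0.05 (edgeR adjusted p 0.0330), and passed in only 1 of the 3 paired fits without 1 pair. Of the 3 furin and ADAM proteases and the 9 corepressors, 0 passed, with edgeR, in the paired fit (0 and 2 had an unadjusted p under 0.05). RBPJ's own gene, Rbpj, was at 9.16 to 9.81 CPM in the negative and 7.44 to 8.24 CPM in the positive cells, with a paired log2 difference of -0.29 ± 0.10 that did not pass (edgeR adjusted p 0.0864).

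In the macrophages, Notch1 was the member that passed a test between the sorts, and only with pairing. Of the 8 tested, 0 passed in the unpaired fit by edgeR, 0 had an unadjusted p under 0.05 and DESeq2 called 0. That fit called 0% of all 14988 genes (0, with 2345 at an unadjusted p under 0.05, and 1263 by DESeq2). In the paired fit 1 of 8 passed, Notch1, beside 21% of all genes (10.8% higher and 10.2% lower in the FceRIa-positive cells), so the members' share was not above the background. An unadjusted p under 0.05 in that fit was found for 4 of the 8 members and for 5123 of all genes. Groups that did not overlap were found for 0 of the 8 members and for 21.2% of all genes.

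Notch1 was at 50.6, 29.2 and 52.6 CPM in FceRIa-negative replicates 1, 2 and 3 and at 69.7, 41.9 and 59.3 CPM in the positive ones. In 3 of 3 pairs the positive library was higher, with replicate 2 the lowest of each group. The paired log2 difference was 0.40 ± 0.09 with an adjusted p of 0.0160, and the unpaired one was 0.38 ± 0.27 with an adjusted p of 0.619 (edgeR). The paired call was lost without pair 1 (adjusted p 0.135) and without pair 2 (0.0763). Notch2 was at 64.5, 51.0 and 63.5 CPM in the negative and at 91.5, 63.6 and 64.4 CPM in the positive libraries. Only replicate 1 of the positive group stood well above the others, and the paired log2 difference of 0.30 ± 0.10 missed the threshold (edgeR adjusted p 0.0786), which it passed without pair 3. Notch4 was at 4.45, 2.50 and 4.54 CPM against 3.52, 2.009 and 2.004 CPM, lower in the positive library of 3 of 3 pairs, with a paired log2 difference of -0.59 ± 0.22 that did not pass (edgeR adjusted p 0.0998). Notch3 was at 0.172 to 2.35 CPM on 6 to 91 counts, and the groups overlapped.

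The Jagged ligands were the only ones of the 4 ligands above 1 RPKM in the macrophages. Jag1 was at 25.5, 26.6 and 12.9 CPM in the negative and at 32.1, 26.9 and 19.2 CPM in the positive libraries, with a paired log2 difference of 0.31 ± 0.11 that did not pass (edgeR adjusted p 0.0821) except without pair 2. Jag2 was at 17.9, 12.2 and 11.8 CPM against 17.2, 9.73 and 10.2 CPM, slightly lower in 3 of 3 positive libraries, with a paired log2 difference of -0.18 ± 0.10 (edgeR adjusted p 0.278). Dll1 had 2 to 29 counts and Dll4 3 to 27 counts per library. Hes1 was at 18.6, 7.76 and 19.8 CPM in the negative and 17.1, 8.83 and 21.2 CPM in the positive libraries. The replicate number moved it far more than the sort did, and the paired log2 difference was 0.06 ± 0.10 (edgeR adjusted p 0.692). Hey1 had 1 to 15 counts and was not tested.

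**Figure D4:**
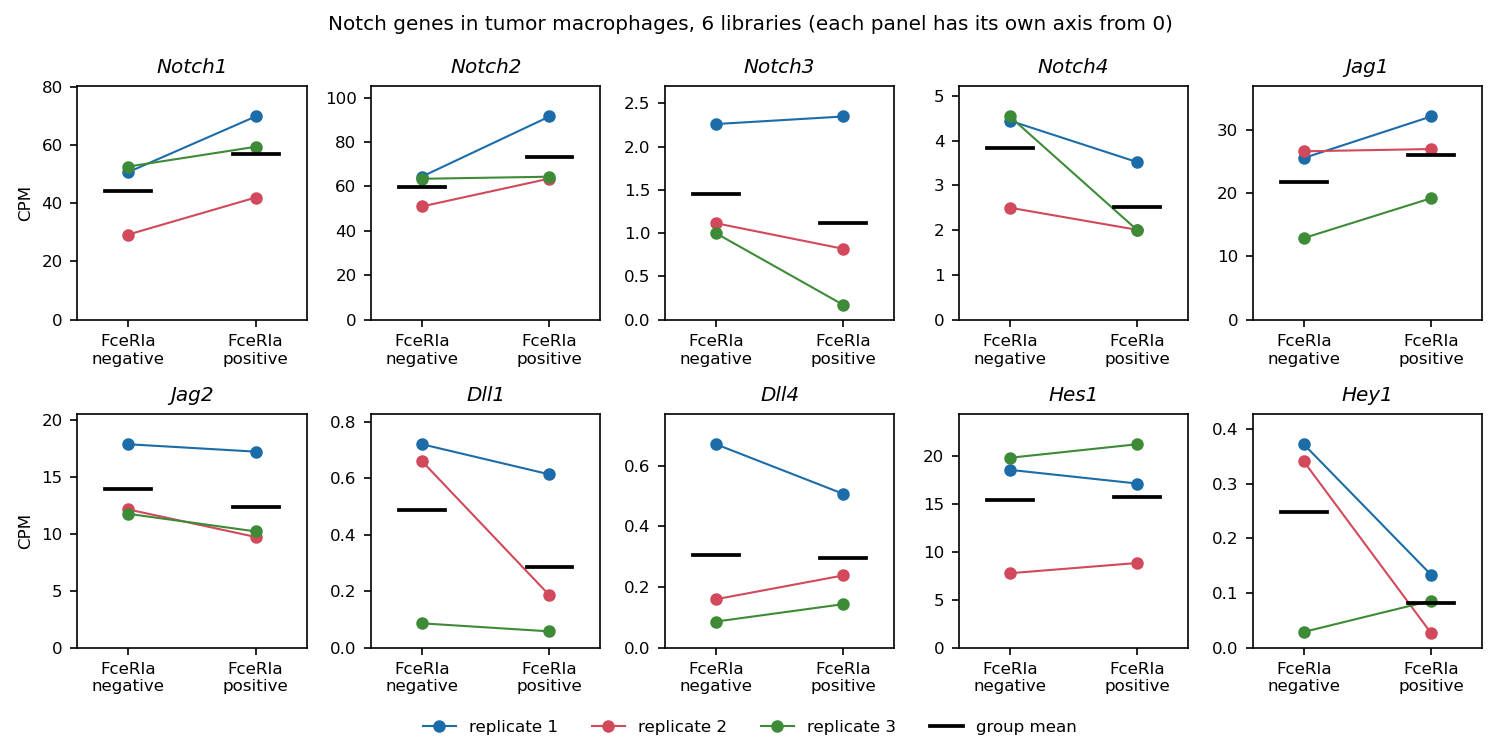
CPM (vertical axes, each from 0) of the 10 Notch genes in the 6 macrophage libraries, by FceRIa sort (horizontal axes); colours mark replicate numbers, lines join libraries of the same number and black bars are group means. The groups of every tested member overlap, and Notch1 is higher in the positive library of each replicate number.

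Of the other 59 genes, 50 were tested in the macrophages, and the unpaired fit called 0 by edgeR (10 had an unadjusted p under 0.05, and DESeq2 called 3). In the paired fit 6 were higher and 5 lower in the FceRIa-positive cells, 11 of 50 beside 21% of all genes. The median log2 difference of the list was 0.13. Maml2, a Mastermind coactivator of the RBPJ complex, was at 11.9, 11.5 and 7.80 CPM in the negative and at 27.3, 20.2 and 18.1 CPM in the positive libraries. Its groups were apart, with a paired log2 difference of 1.08 ± 0.11 (edgeR adjusted p 0.000633). Dtx4 was at 53.5, 49.6 and 33.9 CPM against 87.3, 82.9 and 80.8 CPM, with a paired log2 difference of 0.91 ± 0.11 (edgeR adjusted p 0.00104), so this gene was higher in the FceRIa-positive macrophages and lower in reporter-positive carcinoma cells. Rbpj was at 72.8, 64.9 and 62.6 CPM against 84.5, 77.5 and 82.3 CPM (paired log2 0.30 ± 0.07, edgeR adjusted p 0.0191). The sheddase gene Adam17, the gamma-secretase subunit gene Ncstn and the ubiquitin ligase gene Itch were also higher, by 0.34, 0.42 and 0.31 on the log2 scale.

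The genes that were lower in the FceRIa-positive macrophages included Neurl1a and Neurl1b, of the Neuralized ubiquitin ligases, which are known to act on Notch ligands. Of the 13 genes tested for ubiquitin handling of ligands and receptors, 2 were higher and 3 lower in the paired fit. The ligand ubiquitin ligase genes Mib1 and Mib2, named outside the naming rule, went the other way. Their paired log2 differences of 0.25 ± 0.08 and 0.11 ± 0.07 did not pass (edgeR adjusted p 0.0637 and 0.321). Neurl1a was at 29.0, 35.6 and 25.8 CPM in the negative and at 16.9, 25.5 and 18.6 CPM in the positive libraries, with a paired log2 difference of -0.56 ± 0.09 (edgeR adjusted p 0.00357). Neurl1b was lower by 0.49, the Fringe gene Mfng by 0.37 and the deacetylase gene Hdac1 by 0.27 on the log2 scale. The remaining gene that passed was Neurl3, at -0.32 ± 0.09 (edgeR adjusted p 0.0453), which lies outside the naming rule and is named because its value was seen. Maml2, Dtx4 and Neurl1a passed in each of the 3 paired fits without 1 pair, and the other genes called in the paired fit passed in 1 or 2 of them. Other cells moved with this sort. The 7 dendritic and Langerhans cell markers summed to 67.9 to 246 CPM in the negative and 15.3 to 53.1 CPM in the positive libraries, led by Cd207 at 43.7 to 202 CPM and 5.58 to 36.5 CPM. The 10 macrophage markers summed to 11277 to 14548 CPM and 17961 to 19742 CPM. Their part in these differences was not tested.

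Between the cell types, 9 of the 10 members differed in the fit of all 12 libraries, 7 higher in the tumor cells and 2, Notch2 and Notch4, higher in the macrophages. This share is near the background, since that fit called 85.4% of 16279 genes (40.6% higher and 44.8% lower in the tumor cells). Cell type, table and preparation cannot be told apart in this comparison. The log2 difference, tumor minus macrophage, was 2.11 ± 0.17 for Notch1, -0.87 ± 0.10 for Notch2, 5.08 ± 0.46 for Notch3 and -2.04 ± 0.44 for Notch4, beside a median of -0.09 over all genes. The 10 endothelial markers summed to 50.3 to 69.6 CPM in the FceRIa-negative and 61.5 to 94.0 CPM in the FceRIa-positive macrophages. In this fit 3 of the 10 were higher in the macrophages and 2 in the tumor cells. The part of endothelial RNA in the Notch4 difference was not tested. All 4 ligands were higher in the tumor cells, by 2.81 ± 0.19 for Jag1, 4.38 ± 0.19 for Jag2, 7.26 ± 0.40 for Dll1 and 1.32 ± 0.49 for Dll4, of which the last, on few counts, missed the threshold when any of 5 libraries was left out (edgeR adjusted p of 0.0556 to 0.0720) and when same-number libraries of a cell type were summed into 3 samples per cell type (0.0955). Hes1 was higher by 2.72 ± 0.30, and Hey1 did not differ beyond its error (0.18 ± 0.60, edgeR adjusted p 0.787).

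**Figure D5:**
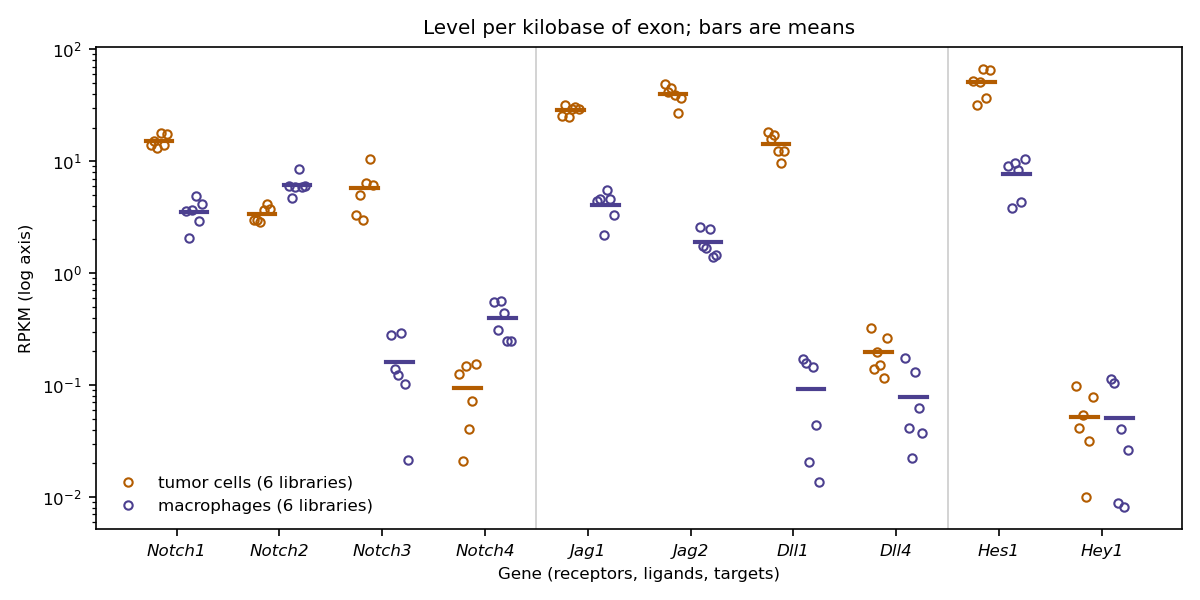
RPKM (vertical log axis) of the 10 Notch genes in the 6 tumor (orange) and 6 macrophage (purple) libraries; circles are libraries and bars are means. Notch2 and Notch4 lie higher in macrophages, the other receptors, the ligands and Hes1 higher in tumor cells, and Hey1 lies near the counting limit in both.

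Ordered by RPKM, the tumor cells had Hes1 at the top (31.8 to 66.9, median 51.8), then Jag2 (26.9 to 48.9, median 40.0) and Jag1 (24.7 to 31.6, median 29.4). Notch1 followed at 13.2 to 17.9 (median 14.5) and Dll1 at 9.71 to 18.1 (median 14.1). Notch1 was above Dll1 in 3 of 6 libraries, and this order went with the reporter groups. Dll1 was above Notch1 in every reporter-negative library (15.7 to 18.1 against 13.2 to 15.2 RPKM). In every reporter-positive library Notch1 was above Dll1 (13.9 to 17.9 against 9.71 to 12.4 RPKM). Next came Notch3 at 3.01 to 10.4 (median 5.605) and Notch2 at 2.86 to 4.18 (median 3.32), whose ranges overlapped although Notch3 was higher in all 6 libraries. Dll4, Notch4 and Hey1 were at 0.324 RPKM or less. The ranges were apart between Jag1 and Notch1 and between Notch2 and Dll4, and overlapped between all other neighbours in the order.

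In the macrophages Hes1 (3.81 to 10.4 RPKM, median 8.76) and Notch2 (4.73 to 8.49, median 5.93) led without differing beyond their spread, each being above the other in 3 of 6 libraries. Jag1 (2.21 to 5.50, median 4.47), Notch1 (2.05 to 4.90, median 3.63) and Jag2 (1.397 to 2.57, median 1.72) followed, and Notch1 was above Jag2 in all 6 libraries. The only gap without overlap lay between Jag2 and Notch4, at 0.249 to 0.563 RPKM. Notch3, Dll1, Dll4 and Hey1 were at 0.290 RPKM or less. The receptor shares differed from those of the tumor cells: Notch2 took 60.1 ± 4.57% of the receptor sum in the FceRIa-negative and 60.5 ± 3.40% in the positive macrophages, and Notch1 took 32.9 ± 3.99% and 35.6 ± 4.07%. The Notch4 share was 5.32%, 4.29% and 5.49% in FceRIa-negative replicates 1, 2 and 3 against 3.10%, 2.71% and 2.39% in the FceRIa-positive ones, and is given without a test.

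The macrophage libraries held some keratinocyte RNA, and its amount differed between them. Krt14, a basal keratin, was at 4.66%, 3.34% and 0.344% of its mean tumor level in FceRIa-negative replicates 1, 2 and 3 and at 3.17%, 2.11% and 0.261% in the positive ones. Over all 8 keratinocyte markers the sum was 2179 to 3694 CPM in the negative and 579 to 2060 CPM in the positive libraries, but this includes Cdh1 and Epcam, which were at 214% and 86.2% of their tumor level in the macrophages. Dll1 was at 1.20%, 1.10% and 0.143% of its tumor level in the negative and 1.02%, 0.308% and 0.0952% in the FceRIa-positive libraries, low where Krt14 was low. Jag2 stood at 4.26% and 3.70% of its tumor level in the replicate 3 libraries, where Krt14 was at 0.344% and 0.261%. The keratinocyte markers varied there: the median of the 8 was 0.452% and 0.474%, but Itga6 was at 3.98% and 6.39%. The part of keratinocyte RNA in the macrophage levels was not tested. In the same libraries Jag1 was at 7.74% and 11.5%, Notch1 at 24.2% and 27.3% and Hes1 at 19.2% and 20.6% of their tumor levels. Notch3 was at 2.17% and 0.372% there.

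Of the other 59 genes, 51 were tested between the cell types, of which the tumor cells had more of 11 and the macrophages more of 31. These 42 of 51 are near the 85.4% called over all genes. The feedback gene Nrarp had the largest difference of those higher in the tumor cells, at 151 against 1.06 CPM, followed by Dlk2 at 41.03 against 0.389 CPM (log2 7.12 ± 0.40 and 6.64 ± 0.48). In the macrophage libraries they reached at most 1.42% and 2.12% of their tumor levels, and Dll1 at most 1.20%. On the other side, Neurl3 was at 293 CPM in the macrophages and 0.947 CPM in the tumor cells, and the Fringe gene Mfng at 26.3 and 0.193 CPM. The nuclear partner Rbpj was at 74.1 CPM in the macrophages and 8.74 CPM in the tumor cells (log2 difference tumor minus macrophage -3.08 ± 0.06). In all, 6 of the 7 gamma-secretase genes were higher in the macrophages, beside the 44.8% of all genes that were, with Psen2 at 43.3 against 2.02 CPM. Aph1b and Aph1c are near-identical copies, so the split of reads between them is uncertain.

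The genes whose log2 CPM followed the 4 members of highest mean CPM most closely over the 12 libraries were found among 9370 genes. Jag2 was closest to Hspg2 (Pearson r 0.998), Map6 and Met, Notch1 to Mark4 (0.994), Foxp4 and Kif1c, Jag1 to Cpne8 (0.997), Rbfox2 and Mfap3l, and Hes1 to Ubap2 (0.993), Atxn7l3 and Fam110a. All of these were higher in the tumor cells, so the likeness rests mostly on the gap between the cell types and is a description only. Of the 3 genes closest to Jag2, Met, the receptor of hepatocyte growth factor, averaged 268 CPM in the reporter-negative and 214 CPM in the reporter-positive cells. Hspg2 averaged 136 and 118 CPM, and Map6 hardly moved, at 71.9 and 71.0 CPM. These means are given without a test.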

How the data were processed

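RNA of sorted cells was extracted with Trizol and made into TruSeq v2 libraries, per the labels' protocols. Both deposited tables are raw counts per gene, which the authors made. The submitters' processing notes name FastQC, STAR and the build mm10 (GRCm38), with no versions. No source here gives the counting tool or the strand setting, and reads from overlapping genes cannot be told apart; genes overlapping exons of Notch1, Notch2, Notch3, Dll1 and Dll4 had at most 20 counts in any library. The tables have 53801 gene rows, 0 of them without a gene, and 53620 IDs matched GENCODE M21 (GRCm38), which gave coordinates and exon lengths. Another 4 columns of counts belong to no sample here and were not used.

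The test was that of edgeR 4.0.16 in R 4.3.3 (filterByExpr, trimmed mean of M values, quasi-likelihood test, Benjamini-Hochberg adjustment over all genes tested, threshold 0.05). That test gives no standard error. The SE of a log2 difference was taken as its absolute value divided by the square root of the F statistic. Each sort was fitted on its own 6 libraries, leaving 13604 tumor and 14988 macrophage genes, and the cell types on all 12 (16279 genes). The main fit had no pairing. Same-number libraries correlated in their deviations at 0.449, 0.703 and 0.488 (tumor) and 0.688, 0.787 and 0.734 (macrophages), so the paired fit is given beside it; tumor negative replicate 1 and positive replicate 3 also correlated, at 0.488, so numbers 1 and 3 are not told apart. Residual degrees of freedom were 4 without and 2 with pairing. Scripts were tested on simulated data.

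The members and lists were chosen with earlier results of these data known. Named are all members, other Notch genes past the unpaired threshold or among the 10 with the smallest paired p in a sort, and for the 4 members of highest mean CPM the 3 genes of highest correlation; not every gene so named is described, and the result of 1 of them is not reported here. Alternatives were DESeq2 1.42.0, other scaling, filters and thresholds, leaving out each library and, added after seeing the data, leaving out each pair, DESeq2 with pairing, summing tumor replicates 1 and 3 and, between cell types, summing same-number libraries.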

Additional observations from a re-analysis of the deposited data

How the results depend on the processing

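In the tumor cells the 0 members called in the unpaired fit became 5 with the replicate block, 3 with DESeq2, 5 with DESeq2 and the block, 4, 7 and 4 with the block and without pair 1, 2 or 3, 4 with the block and replicates 1 and 3 summed, and 0 to 2 when a single library was left out of the unpaired fit. Over all genes the 110 calls became 2449 with the block, 0 at a threshold of 0.01, 1163 with DESeq2, 1687 with DESeq2 and the block, 209 with no count filter, 0 with replicates 1 and 3 summed and 935 with that sum and the block. The block without pair 1, 2 or 3 gave 1553, 5729 and 1143, and leaving out single libraries gave 0 to 621. Without pair 2 the near-identical replicates 1 and 3 remain, so the spread in that fit is close to counting error.

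In the macrophages the 0 members called became 1 with the block and 1 with DESeq2 and the block, and with the block 0, 1 and 3 without pair 1, 2 or 3. Over all genes 0 calls became 3142 with the block, 1263 with DESeq2, 2807 with DESeq2 and the block, 623 with no count filter, 1317, 2672 and 3349 with the block without pair 1, 2 or 3, and 0 to 2 without single libraries. Between the cell types the 9 members called were 8 or 9 without single libraries. With each pair as 1 sample (same-number libraries of a cell type summed, 3 against 3) they were 8, Dll4 losing its call, and 13276 of all genes were called.

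Directions turned only for members on few counts or near 0. In the tumor cells Notch4 ranged from -0.84 to 0.23 without single libraries (0.55 with the block without pair 1 and 0.057 with the block and replicates 1 and 3 summed), and Dll4 from -0.73 to 0.064 (0.14 with the block without pair 1). In the macrophages Notch3 ranged from -1.53 to 0.11, Jag2 from -0.47 to 0.059 and Hes1 from -0.27 to 0.33 (-0.0077 with upper-quartile factors), and between cell types Hey1 ranged from -0.26 to 0.46 (-0.038 with pairs summed). Of the other single-gene alternatives 418 kept direction and call, 39 gained the call and 6, all for Dll4 between cell types, lost it; the cause was not tested. With the longest transcript as gene length Notch1 stood above Jag1 in the macrophages (5.33 against 4.25 RPKM), and the Notch3 share of the tumor receptors was 13.4% and 21.2%. The values of Hey1, Notch4 and Dll4 in the tumor cells and of Dll1, Dll4 and Hey1 in the macrophages rest on few counts per library.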
